A study of Mus musculus with 4 samples.

Results

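The HOX genes are 39 mouse genes for homeodomain transcription factors, and they lie in 4 clusters named A to D. Members were taken by symbol, as every gene whose GENCODE name is Hox followed by a cluster letter from a to d and a number. All 39 had a line in the count tables, which list 52636 gene identifiers. The number is the paralogue group, so that Hoxa4, Hoxb4, Hoxc4 and Hoxd4 descend from the same ancestral gene.

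RNA-seq was run on cells sorted by fluorescence as otic from mouse otocysts, the vesicles that become the inner ear. The labels give 2 libraries from control embryos and 2 labelled Brg1cKO, a conditional knockout of Brg1, the ATPase of the SWI/SNF chromatin remodelling complex. Each library came from 3000 cells. No source used here names the stage, the Cre driver, the sort marker or the exact control genotype, or says whether replicates are separate embryos or sorts. P-values therefore reflect the spread between libraries alone, and that spread may be technical.

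HOX genes give cells their position along the head-to-tail axis. Low-numbered genes are switched on early and reach far forward, into the segments of the hindbrain, while high-numbered genes act in the trunk, limbs and tail. The otic vesicle forms beside the hindbrain, within the range of low-numbered HOX genes. HOX proteins bind DNA together with PBX and MEIS cofactors, retinoic acid switches the low-numbered genes on, and Polycomb and trithorax proteins keep the clusters silent or active.

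Values are given throughout in the order control replicate 1, control replicate 2, Brg1cKO replicate 1, Brg1cKO replicate 2. Gene reads per library numbered 15357265, 19132360, 29361382 and 25875555. A count of 0 allows up to 3 reads, which is 0.195, 0.157, 0.102 and 0.116 CPM (here a count over the unscaled size of its library). Smarca4, the gene for Brg1, stood at 816, 815, 891 and 848 CPM. Its log2 fold change was 0.09 ± 0.0995 (SE, adjusted p = 0.817, edgeR), so its whole-gene count did not tell the labels apart. Control libraries differed more from each other than the other 2, with an SD of the log2 ratio between replicates of 2.30 against 1.27 over 16557 tested genes. All other CPM use library sizes scaled by TMM, a method that sets the libraries to a common level, and fold changes are of Brg1cKO over control. Without molecular identifiers reads can be copies of the same molecule, so limits drawn from counts cover counting error only.

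In mm10, cluster A lies on chromosome 6 from 52155590 to 52260880 with 11 HOX genes, and cluster B on chromosome 11 from 96194316 to 96368256 with 10. Cluster C lies on chromosome 15 from 102921103 to 103036852 with 9, and cluster D on chromosome 2 from 74668310 to 74765142 with 9. Windows of 250 bases before a start site were found in RefSeq (GRCm38.p6, the same build) for 22 of the 39 genes, 24 windows in all. The 4 windows below are shown because they set genes with many reads beside one with none. Hoxa2 and Hoxb4 had their highest values in the libraries labelled Brg1cKO, Hoxb1 had reads in a single library, and Hoxa13 had no read anywhere. They run 5′ to 3′ on the gene's strand and end at the base before the start site. Capitals mark 3 searched motifs, on either strand: TGATNNAT, bound by PBX with HOX, TGACAG, bound by MEIS, and AGGTCA, a half-site of the retinoic acid receptor.
Hoxa2: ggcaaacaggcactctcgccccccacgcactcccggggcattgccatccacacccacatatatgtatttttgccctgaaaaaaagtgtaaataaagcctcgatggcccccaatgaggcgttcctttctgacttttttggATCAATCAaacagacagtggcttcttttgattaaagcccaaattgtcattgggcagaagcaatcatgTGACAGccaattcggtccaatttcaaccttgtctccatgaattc
Hoxb1: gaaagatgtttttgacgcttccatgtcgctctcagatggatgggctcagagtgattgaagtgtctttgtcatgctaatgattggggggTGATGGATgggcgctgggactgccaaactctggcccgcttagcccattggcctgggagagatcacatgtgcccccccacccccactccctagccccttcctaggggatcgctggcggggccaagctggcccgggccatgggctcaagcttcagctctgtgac
Hoxb4: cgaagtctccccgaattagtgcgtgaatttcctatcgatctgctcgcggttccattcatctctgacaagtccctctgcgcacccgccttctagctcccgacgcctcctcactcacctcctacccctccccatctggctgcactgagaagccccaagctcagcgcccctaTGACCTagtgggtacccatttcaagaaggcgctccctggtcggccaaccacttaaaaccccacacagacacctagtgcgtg
Hoxa13: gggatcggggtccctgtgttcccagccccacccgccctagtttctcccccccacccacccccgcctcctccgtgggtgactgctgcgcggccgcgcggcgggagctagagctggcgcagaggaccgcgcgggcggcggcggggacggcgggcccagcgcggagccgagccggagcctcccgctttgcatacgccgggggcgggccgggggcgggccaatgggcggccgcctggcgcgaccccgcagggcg
The Hoxa2 window is chr6:52164832-52165081 (minus strand), the Hoxb1 window chr11:96365508-96365757 (plus), the Hoxb4 window chr11:96318017-96318266 (plus) and the Hoxa13 window chr6:52260881-52261130 (minus). Hoxa2 held a PBX-HOX match, ATCAATCA, that began 111 bases before the start, and a MEIS match 44 bases before it. Hoxb1, whose last 6 window bases lie in a GENCODE exon, held the PBX-HOX match TGATGGAT 162 bases before its start, and Hoxb4 a retinoic acid half-site 81 bases before its own. The Hoxa13 window held none of the 3. PBX-HOX matches stood in 4 of the 24 HOX windows and in 7.68% of all 32851 windows. MEIS matches stood in 2 of 24 and in 15.9% of all, and retinoic acid half-sites in 6 of 24 and in 14% of all. A match is a description of the letters only. The CpG dinucleotide, the target of DNA methylation, occurred 6 times in the Hoxa2 window, 7 in Hoxb1, 14 in Hoxb4 and 35 in Hoxa13. Its median count was 7 in the 11 windows of HOX genes with at least 10 reads in some library, 20 in the 13 windows of the other HOX genes, and 6 in all windows. Some windows lie inside genes. Among the 11, Hoxa3 and Hoxc4 lay wholly in GENCODE HOX exons (250 bases), and Hoxa7 and Hoxd3 held 78 and 66 such bases. Among the 13, Hoxa11 held 98 and Hoxa6 held 50. Hoxa10 and Hoxd11 count more than once. The bases after the start matched a transcript of the gene in 20 of the 24. These medians therefore do not compare promoters alone.

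Reads lay mainly in paralogue groups 1 to 5. Of the 15 HOX genes in these groups, 11 had at least 10 reads in some library and 1, Hoxd4, had none in any. Of the 24 genes in groups 6 to 13, 8 reached 10 reads in some library and 12 had none in any. Over all 39, 19 reached 10 reads, 7 had between 1 and 9 at most, and 13 had no read. Among all 21819 protein-coding genes in the tables, 71.1% reached 10 reads in some library and 24.8% had none. By cluster, the genes that reached 10 reads were 7 of 11 in A, 6 of 10 in B, 4 of 9 in C and 2 of 9 in D. The silent genes were Hoxa6, Hoxa11 and Hoxa13, Hoxb7 and Hoxb13, Hoxc10, Hoxc11 and Hoxc12, and Hoxd4, Hoxd9, Hoxd10, Hoxd12 and Hoxd13. For Hoxd4, 52.3% of exonic bases are shared on the same strand with Hoxd3 or a read-through gene. Reads in shared exons can be left out as ambiguous, so its 0 covers less of the gene than the others do.

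**Figure D1:**
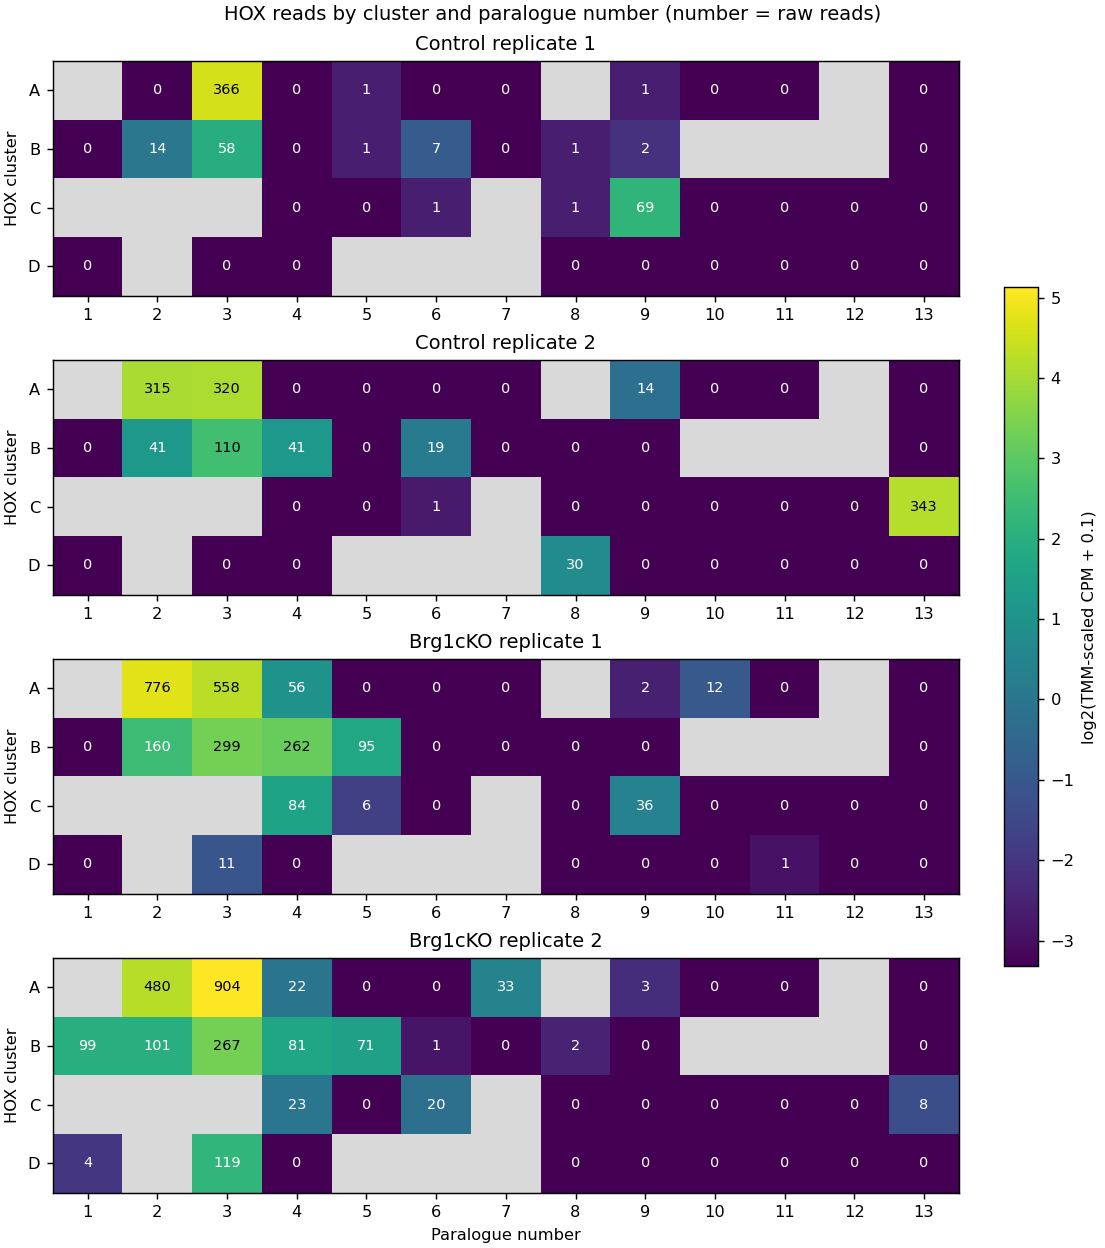
Raw reads of HOX genes in each library, by cluster (rows A to D) and paralogue number (columns 1 to 13), coloured by log2(CPM + 0.1); grey cells are positions without a mouse gene or not shown. Reads concentrate in columns 1 to 5 in all 4 libraries, and Hoxc13 (343 reads) stands alone at the right of control replicate 2.

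Genes with at least 10 reads in all 4 libraries included Hoxa3, Hoxb2 and Hoxb3, which act in the hindbrain and the pharyngeal arches. At least 10 reads in both libraries labelled Brg1cKO were found for 10 HOX genes, all in groups 1 to 5, and in both controls for 4. With every library thinned to 15357265 gene reads, these counts were 9 and 4. HOX genes with a read numbered 13, 11, 15 and 18 by library, and 13, 11, 14 and 17 after thinning. Over all genes, those with a read numbered 17266, 17086, 20859 and 20902. Records assigned to genes were 48.2%, 49.3%, 64.0% and 63.7% of all, and the part of this difference in the HOX values was not tested.

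Paralogue groups 1 to 3, the anterior genes, held most HOX reads in every library. Hoxb1, a gene of rhombomere identity and the facial nerve, had 99 reads (3.82 CPM) in Brg1cKO replicate 2 and none in the other 3 libraries. Hoxd1, its paralogue in cluster D, had 4 reads, in that same library.

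Hoxa2, which sets the identity of the second pharyngeal arch, had 0, 315, 776 and 480 reads, or 0, 16.7, 26.5 and 18.5 CPM. Both Brg1cKO values lay above both controls, but control replicate 2 was close to Brg1cKO replicate 2, and control replicate 1 alone had none. Hoxb2, which acts in the same hindbrain segments as Hoxb1, had 14, 41, 160 and 101 reads, or 0.909, 2.18, 5.46 and 3.90 CPM. Its groups did not overlap, and its highest value was in Brg1cKO replicate 1.

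Hoxa3, known for the thymus and parathyroid that form from the third arch region, had the most HOX reads in 2 of the 4 libraries. It had 366, 320, 558 and 904 reads, or 23.8, 17.0, 19.1 and 34.9 CPM, and the groups overlapped. Hoxb3, its paralogue in cluster B, had 58, 110, 299 and 267 reads, or 3.77, 5.84, 10.2 and 10.3 CPM. The 2 Brg1cKO values for Hoxb3 were almost the same, and both controls lay below them. Hoxd3 had 0, 0, 11 and 119 reads, or 0, 0, 0.376 and 4.59 CPM. Its reads lay in both Brg1cKO libraries, mostly in replicate 2, and 62.3% of its exonic bases are shared on the same strand with Hoxd4 or a read-through gene.

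Divided by exon length, Hoxa2 had the highest level of any HOX gene in 3 libraries, at 9.42, 14.9 and 10.4 CPM per kb, and none in control replicate 1. Hoxa3 stood at 3.95, 2.82, 3.17 and 5.80 CPM per kb. Hoxb3 stood at 0.886, 1.37, 2.40 and 2.42 CPM per kb. On this scale Hoxa3 lay above Hoxb3 in each library, and below Hoxb4 in Brg1cKO replicate 1, where Hoxb4 reached 3.49 CPM per kb. Hoxc13 reached 7.40 CPM per kb, but in control replicate 2 alone.

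Groups 4 and 5, genes of the posterior hindbrain and neck, had few reads in the controls. Hoxb4, which marks the caudal hindbrain, had 0, 41, 262 and 81 reads, or 0, 2.18, 8.95 and 3.12 CPM. Both Brg1cKO values were above both controls, and control replicate 2 lay nearer to Brg1cKO replicate 2 than the Brg1cKO replicates did to each other. Hoxa4 (chromosome 6, 52189671 to 52191753, minus strand), a gene of neck vertebra identity, had 0, 0, 56 and 22 reads, or 0, 0, 1.91 and 0.849 CPM. Hoxc4 had 0, 0, 84 and 23 reads, or 0, 0, 2.87 and 0.887 CPM. Both were absent from the controls and higher in Brg1cKO replicate 1 than in replicate 2. Set against a floor of 3 reads over the control group (0.0876 CPM), Hoxa4 was at least 16.1-fold and Hoxc4 at least 22.1-fold higher. With control replicate 1, control replicate 2, Brg1cKO replicate 1 or Brg1cKO replicate 2 left out, a check added after the data were seen, the bound was 8.88, 7.25, 9.68 or 21.8 for Hoxa4. For Hoxc4 it was 12.2, 9.94, 10.1 or 32.7.

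Hoxb5 (chromosome 11, 96303336 to 96306121, plus strand), active in the vagal neural crest, had 1, 0, 95 and 71 reads. That is 0.065, 0, 3.25 and 2.74 CPM, so the Brg1cKO libraries lay close together and the controls at or near 0. Hoxc5 had 6 reads in Brg1cKO replicate 1 and none elsewhere, Hoxa5 had 1 read in control replicate 1, and Hoxd4 had none. HOX genes with 0 reads in both controls and at least 10 in each Brg1cKO library were Hoxa4, Hoxc4 and Hoxd3, 3 of the 26 HOX genes with a read. The same held for 2.82% of the 25174 genes with a read. The reverse pattern was found in no HOX gene and in 0.135% of genes. With a minimum of 30 reads instead of 10 the HOX count was 0, after thinning it was 2, and with single libraries left out it was 4 or 5. Leaving out a library removes a condition, so that count could not fall below 3.

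**Figure D2:**
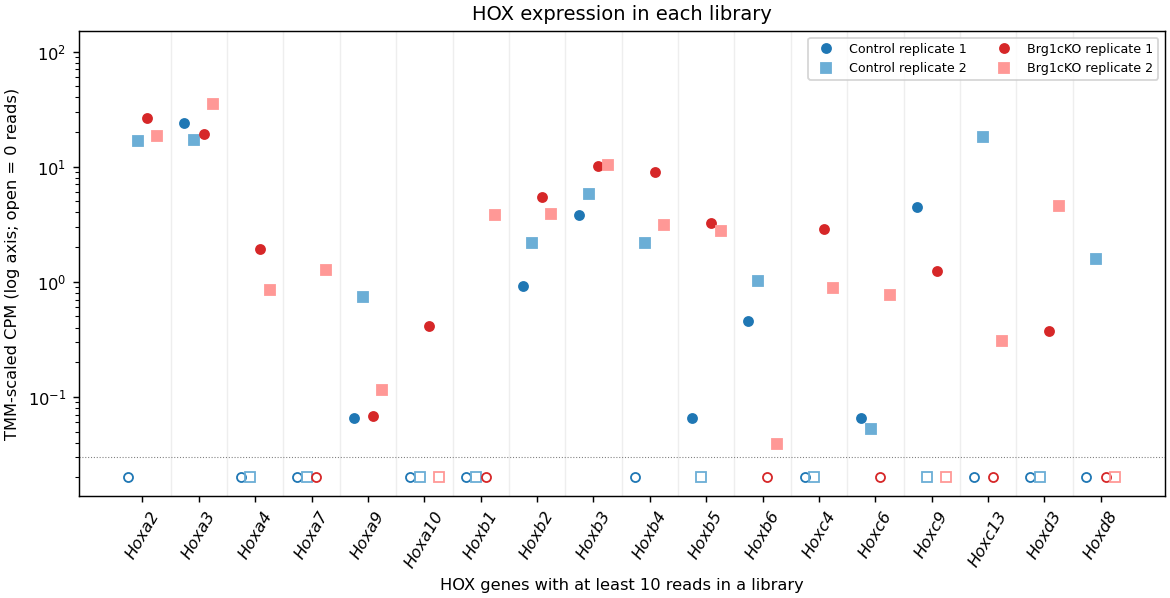
TMM-scaled CPM on a log axis of 18 of the HOX genes with at least 10 reads in some library; filled points are libraries with reads, and open points under the dotted line are libraries with 0. Hoxa4 and Hoxc4 have both controls at 0, and Hoxc13 stands at 18.2 CPM in control replicate 2.

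Groups 6 to 13, the trunk, limb and tail genes, never reached 10 reads in both replicates of a group. Hoxc13, a gene of hair and nails, had 0, 343, 0 and 8 reads, or 0, 18.2, 0 and 0.309 CPM. This is the highest HOX count in control replicate 2, and the other 3 libraries had at most 8 reads. Hoxc9, a thoracic gene, had 69, 0, 36 and 0 reads, or 4.48, 0, 1.23 and 0 CPM, and was present in 1 library of each group. Hoxd8 had 30 reads (1.59 CPM) in control replicate 2 and none elsewhere.

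Hoxb6, a gene of the lateral plate and trunk, had 7, 19, 0 and 1 reads, or 0.455, 1.01, 0 and 0.039 CPM. It was the only gene of groups 6 to 13 whose controls both lay above both Brg1cKO libraries. Hoxa9 had 1, 14, 2 and 3 reads and overlapped between the groups. Hoxa7 had 33 reads in Brg1cKO replicate 2 alone, and Hoxa10 had 12 in Brg1cKO replicate 1 alone. Hoxc6 had 1, 1, 0 and 20 reads. Hoxb8, Hoxb9, Hoxc8 and Hoxd11 had at most 2 reads in any library.

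**Figure D3:**
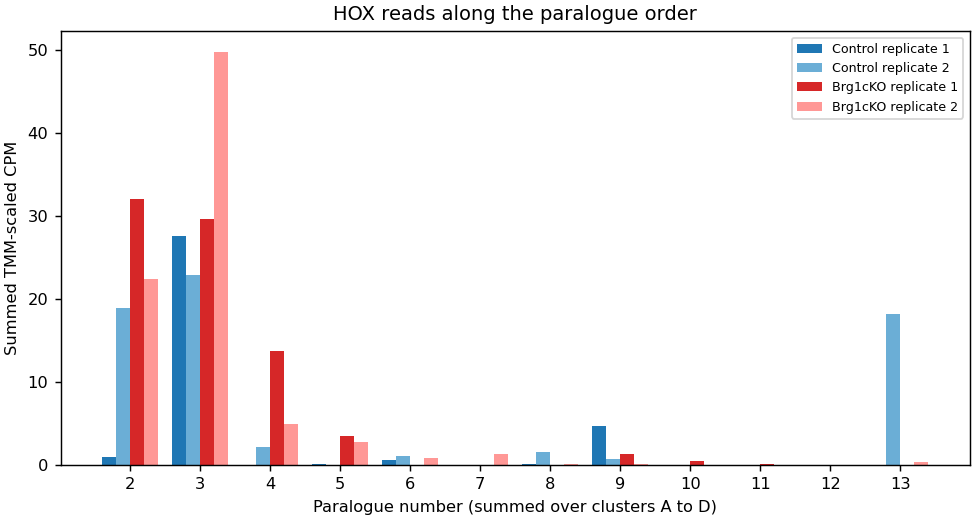
Summed TMM-scaled CPM of the HOX genes that share a paralogue number, from 2 to 13, as bars for each of the 4 libraries. Groups 2 and 3 carry most of the signal in the Brg1cKO libraries, and the bar at 13 is Hoxc13 in control replicate 2.

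Summed over all 39 genes, HOX expression was 36.8, 67.6, 82.9 and 93.8 CPM. The mean was 52.2 ± 21.8 CPM (SD, n = 2) in control and 88.3 ± 7.71 CPM (SD, n = 2) in Brg1cKO, a 1.69-fold ratio with groups that did not overlap. With 2 libraries against 2, an exact two-sided permutation test cannot give a p below 0.333, so no such test was used. Groups 1 to 5 summed to 31.5, 46.1, 81.1 and 91.2 CPM, and groups 6 to 13 to 5.33, 21.6, 1.74 and 2.58 CPM. The anterior sum was higher and the posterior sum lower in both Brg1cKO libraries. Groups 1 to 5 made up 85.5%, 68.1%, 97.9% and 97.2% of HOX reads. Without Hoxc9 and Hoxc13, left out after their values were seen, groups 6 to 13 summed to 0.845, 3.40, 0.512 and 2.28 CPM, and the groups overlapped.

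By cluster, A summed to 26.8, 36.6, 50.3 and 63.1 CPM and B to 5.39, 11.2, 27.9 and 24.0 CPM. Both were higher in each Brg1cKO library than in each control. In cluster A this leaned on Hoxa2 (0, 16.7, 26.5 and 18.5 CPM), absent from control replicate 1. Hoxa3, the other main part of the cluster A sum, overlapped between the groups (23.8, 17.0, 19.1 and 34.9 CPM). Cluster C summed to 4.61, 18.3, 4.30 and 1.97 CPM, lower in Brg1cKO, though control replicate 1 lay close to Brg1cKO replicate 1. Hoxc13 set the highest value, and Hoxc9 (4.48, 0, 1.23 and 0 CPM) most of that of control replicate 1. Hoxc4, with reads in Brg1cKO alone, went the other way. Cluster D summed to 0, 1.59, 0.410 and 4.74 CPM, and the groups overlapped.

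The design asks which genes differ between Brg1cKO and control otic cells, and the count model answered it for the 11 HOX genes that passed the filter on low counts. With edgeR's quasi-likelihood test and Benjamini-Hochberg adjustment over all genes, 0 of the 11 passed an adjusted p of 0.05, against 5 of all 16557 tested genes (0.0302%, with 0.0121% higher and 0.0181% lower in Brg1cKO). Adjusted p-values of those described below ran from 0.368 to 0.898, with standard errors of the log2 fold change from 0.606 to 3.04. The unadjusted value was under 0.05 for Hoxa4, Hoxb5 and Hoxc4, 3 of the 11, all higher in Brg1cKO, beside 7.66% of all tested genes higher and 4.8% lower. Their adjusted p-values were 0.368, 0.380 and 0.368 (edgeR, Benjamini-Hochberg). The filter asks for 0.444 CPM in 2 libraries. Hoxa4, Hoxc4 and Hoxb5 reached this only in Brg1cKO and Hoxb6 only in control, so a difference was a condition of their being tested, and their p-values, folds and intervals support nothing on their own.

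Among anterior genes, the log2 fold change was 1.43 ± 1.80 (SE) for Hoxa2 and 0.40 ± 0.606 for Hoxa3. In cluster B it was 1.60 ± 1.77 for Hoxb2, 1.09 ± 1.17 for Hoxb3 and 2.46 ± 2.35 for Hoxb4. The 95% interval of Hoxa3, the most precise, ran from -1.02 to 1.83, and that of Hoxb4 from -3.07 to 7.99. None of these 5 passed the test, and their intervals leave room for changes of 2-fold or more in either direction. Hoxb5 had a log2 fold change of 6.35 ± 2.62, with an interval from 0.21 to 12.50, and the condition of the filter applies to it.

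Of the posterior genes, Hoxb6 had a log2 fold change of -4.92 ± 2.35 (SE, adjusted p = 0.474, edgeR) and Hoxc9 one of -1.85 ± 3.01 (adjusted p = 0.898, edgeR). Neither passed the test. Fold changes were positive for 9 of the 11 and negative for 2, beside 51.5% positive over all tested genes. The filter had set the sign of Hoxa4, Hoxb5 and Hoxc4 (positive) and of Hoxb6 (negative), so this tally is no measure of support. Both Brg1cKO values lay above both controls for 7 of the 11 (Hoxa2, Hoxa4, Hoxb2, Hoxb3, Hoxb4, Hoxb5 and Hoxc4), beside 26.3% of all tested genes. Hoxa4, Hoxb5 and Hoxc4 among them had to, by the filter. The reverse held for Hoxb6 alone, also set by the filter, beside 17.8%. The median log2 fold change of the 11 was 1.43, and that of all tested genes was 0.03. This median describes the genes that passed the filter, not all 39 members, and includes those whose sign the filter had set. It was 0.30 over the 4 tested genes whose exons overlap no other gene.

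**Figure D4:**
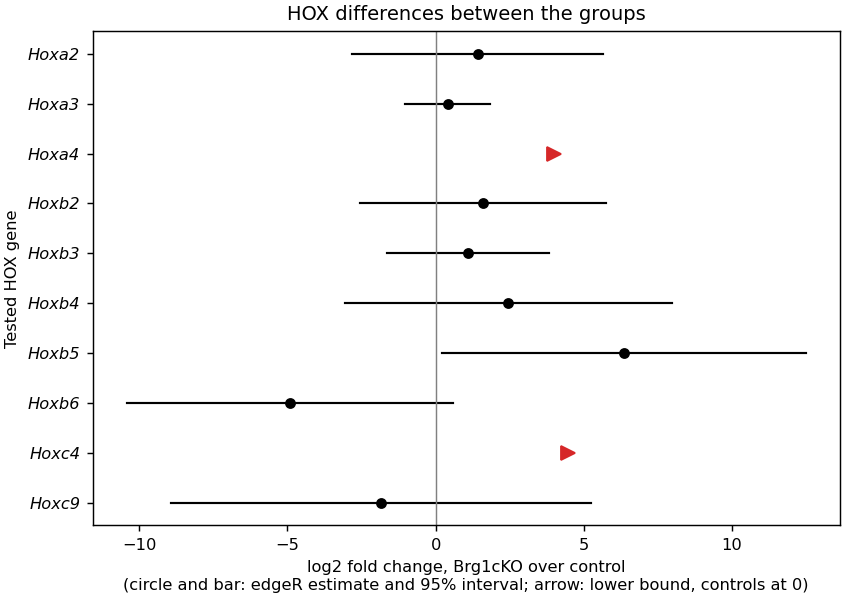
Log2 fold change of Brg1cKO over control for 10 of the tested HOX genes, with circles and bars for edgeR estimates and their 95% intervals and arrows for lower bounds where both controls had 0 reads. The interval includes 0 for all genes with a bar but Hoxb5, which like Hoxa4 and Hoxc4 passed the filter on low counts only through the Brg1cKO libraries.

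Single libraries and the choice of tool changed the calls. Without control replicate 1, edgeR called 1 HOX gene, Hoxc13, lower in Brg1cKO (adjusted p = 0.0000135), beside 8.82% of tested genes called lower. Without control replicate 2 it called Hoxa2 (adjusted p = 1.5e-09) and Hoxb4 (adjusted p = 0.0111) higher, beside 8.46% higher and 8.39% lower over all tested genes. These calls fall on genes that the left-out control expresses differently from the one kept. DESeq2 called Hoxa4 (adjusted p = 0.0246), Hoxb5 (0.0114) and Hoxc4 (0.0165) higher, beside 8.33% of the tested genes called higher and 6.3% called lower. All 3 had passed the filter through the Brg1cKO libraries alone. Its unadjusted value was under 0.05 for 4 of the 11. Over all alternatives, the highest adjusted p of each of these genes rounded to 1. Without Brg1cKO replicate 2 the sign of Hoxa3 turned, to a log2 fold change of -0.090, and without control replicate 1 that of Hoxc9 turned to 6.94.

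Replicates often split on whether a HOX gene was present at all. Of the 11 HOX genes with at least 10 reads in a control library, 5 had 0 in the other control, namely Hoxa2, Hoxb4, Hoxc9, Hoxc13 and Hoxd8. Of the 15 with at least 10 reads in a Brg1cKO library, 5 had 0 in the other, namely Hoxa7, Hoxa10, Hoxb1, Hoxc6 and Hoxc9. These are 45.5% and 33.3%, beside 17.8% and 13% of all genes. Among genes whose highest count lay within the range of these HOX genes, 12 to 904 reads, the shares were 31.9% and 20.2%. The HOX shares rest on few genes, and their difference from these was not tested.

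The clusters also hold 46 other annotated genes between their first and last HOX gene, of which 12 had at least 10 reads in some library and 33 had none. None of the 5 that could be tested was called by edgeR, and the 7 microRNA genes had 0 reads. Hoxb3os, an antisense RNA that overlaps Hoxb3 and Hoxb2, had 6, 13, 180 and 81 reads, or 0.390, 0.690, 6.15 and 3.12 CPM. Both Brg1cKO values were above both controls, with a log2 fold change of 3.09 ± 1.96 (SE, adjusted p = 0.643, edgeR). It shares 52.9% of the exonic bases of Hoxb3 and 27.3% of those of Hoxb2, on the opposite strand. The kit keeps the strand, but the strand setting of the counting is not given, so reads in the shared stretch may have been assigned to either gene.

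Hotairm1, an antisense RNA of cluster A, had 0, 0, 10 and 12 reads, at least 4.55-fold higher in Brg1cKO against the control floor. The bound was 2.504 without control replicate 1 and 2.04 without control replicate 2. Hoxaas2, antisense in the Hoxa3 region, had 24, 228, 166 and 90 reads and a log2 fold change of -0.58 ± 1.52 (SE, adjusted p = 0.939, edgeR). Hoxaas3 had 46 reads in Brg1cKO replicate 2 and none elsewhere. Gm15050 had 59, 0, 20 and 1 reads, Gm11539 had 16, 103, 33 and 4, and Gm14424 had 31, 0, 111 and 0. Like many HOX genes, these RNAs were present in one replicate and absent or low in the other. Gm27861 had 0, 34, 11 and 0 reads. The remaining 4 with at least 10 reads (Gm27477, Gm27605, Gm11536 and 5730596B20Rik) had none in either control. Of these, Gm27477 (19 reads), Gm27605 (42 reads) and 5730596B20Rik (10 reads) were each seen in a single Brg1cKO library. Gm11536 had 3 and 16 reads in the Brg1cKO libraries.

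The cofactors that bind DNA with HOX proteins were present in all libraries. The 9 tested PBX, MEIS and PKNOX genes summed to 569, 719, 755 and 671 CPM, and neither edgeR nor DESeq2 called any. Meis1 stood at 53.6, 62.8, 96.1 and 75.4 CPM and Meis2 at 106, 111, 148 and 134 CPM, above the controls in both Brg1cKO libraries. Their adjusted p-values were 0.585 and 0.607 (edgeR, Benjamini-Hochberg). In this list 3 of the 9 genes lay higher without overlap, beside 26.3% of all tested genes. Pknox2 alone, at 38.7, 49.0, 22.7 and 36.2 CPM, lay lower without overlap, beside 17.8%. The log2 fold change was positive for 5 and negative for 4 of the list, and its median was 0.12.

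Of 10 upstream regulators of HOX genes in the hindbrain, 5 were tested. None was called by edgeR, and DESeq2 called 1 lower, Gbx2. The log2 fold change was positive for 1 and negative for 4. Gbx2, which sets the front of the hindbrain, stood at 20.3, 40.8, 3.11 and 4.63 CPM, lower in both Brg1cKO libraries (log2 fold change -2.98 ± 0.787, SE, adjusted p = 0.310, edgeR). Egr2, an activator of Hoxa2 and Hoxb2, stood at 13.6, 21.01, 10.3 and 19.2 CPM, and its groups overlapped. Cdx1, Cdx2 and Cdx4, activators of the trunk HOX genes, had 0 reads in both controls, and Cdx4 had none in any library. Cdx1 (82 reads) and Cdx2 (11 reads) were each seen in a single Brg1cKO library.

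Of the 17 retinoic acid genes, 4 had a positive and 13 a negative log2 fold change; their median was -0.50. None was called by edgeR, and DESeq2 called 5 lower, which were Rxrg, Rara, Rarg, Aldh1a3 and Cyp26c1. Rxrg, a nuclear receptor partner, stood at 26.0, 38.6, 3.11 and 4.13 CPM (-3.16 ± 0.730 on the log2 scale, SE, adjusted p = 0.244, edgeR). Rara, a retinoic acid receptor, stood at 171, 135, 73.0 and 78.9 CPM. Aldh1a3, which makes retinoic acid, stood at 19.0, 40.9, 1.61 and 0.116 CPM, and Cyp26c1, which degrades it, at 51.2, 79.7, 17.3 and 24.4 CPM. The 4 genes given with values had both Brg1cKO libraries below both controls.

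Neither chromatin group that maintains HOX states held a gene called by edgeR, and DESeq2 called Bmi1 lower and Ctcf higher. Of 16 Polycomb genes, the log2 fold change was positive for 6 and negative for 10, and its median was -0.17. Bmi1, a Polycomb repressor of HOX genes, stood at 53.3, 81.0, 32.6 and 34.6 CPM (adjusted p = 0.368, edgeR). Of 10 tested trithorax and boundary genes, 7 were positive and 3 negative, with a median of 0.07. Ctcf, which binds boundaries within the clusters, stood at 136, 111, 194 and 210 CPM (adjusted p = 0.358, edgeR). Men1, a partner of trithorax enzymes, was at 0 in all libraries. Whether that 0 reflects absent RNA or the way reads were counted was not tested.

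Markers of other cell types moved with the groups as well, and their part in the HOX differences was not tested. In sorted bulk cells, fewer cells of a type and less RNA per cell cannot be told apart. All 15 markers of the otic epithelium had negative log2 fold changes, with sums of 1597, 1881, 288 and 290 CPM. The gene called by edgeR, 1 of the 15, was Oc90, an otoconia protein, at 782, 732, 44.6 and 49.1 CPM (adjusted p = 0.00033), and DESeq2 called 12 lower. The cells labelled otic therefore held otic markers in each library, at lower levels in both labelled Brg1cKO. Endothelial markers were high in all 4, at 2448, 2263, 2870 and 2836 CPM.

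Neighbouring tissues that use HOX genes were compared as marker lists. The 16 hindbrain neural markers summed to 339, 414, 238 and 232 CPM, lower in Brg1cKO. Zic1, at 207, 189, 129 and 115 CPM, was the largest part of this sum in each library. The log2 fold change was positive for 5 and negative for 7 of the 12 tested hindbrain markers (median -0.23). Sox1, Nkx6-2, Dbx1 and Dbx2 had 0 reads in both controls, and Olig1 and Olig2 in both Brg1cKO libraries. Dbx1 (15 reads) and Dbx2 (103 reads) were each seen in a single Brg1cKO library. Olig1 (54 reads) and Olig2 (43 reads) were each seen in a single control. Neural crest and glia markers summed to 332, 436, 298 and 319 CPM, and arch and head mesenchyme markers to 3286, 3327, 2704 and 2699 CPM. Both sums were lower in each Brg1cKO library, but their members went both ways. The log2 fold change was positive for 4 and negative for 4 neural crest genes (median 0.41), and positive for 8 and negative for 7 arch genes (median 0.10). DESeq2 called 3 higher (Ednrb, Tfap2a and Tfap2b) and 2 lower (Sox10 and Erbb3) in the neural crest list, and 2 lower (Col1a1 and Prrx1) in the arch list. Among the hindbrain markers it called 3 higher and 3 lower.

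Paraxial mesoderm markers summed to 48.1, 92.8, 76.3 and 92.0 CPM and overlapped, although Pax3, Lbx1, Myf5 and Tbx22 had 0 reads in both controls. Myf5 (79 reads) and Tbx22 (5 reads) were each seen in a single Brg1cKO library. Markers of lateral plate, limb and heart summed to 108, 130, 442 and 440 CPM, with 11 of 12 log2 fold changes positive and a median of 3.39. Tbx4 and Gata5 in that list had 0 reads in both controls. Striated muscle markers summed to 201, 142, 950 and 933 CPM, positive for all 13. Macrophage markers summed to 278, 332, 1401 and 1313 CPM, positive for all 10, with 1 called by edgeR and 7 by DESeq2. The edgeR call was Mrc1, a scavenger receptor, at 46.3, 71.7, 424 and 397 CPM (adjusted p = 0.0371, edgeR). No gene of the other cell type lists was called by edgeR. DESeq2 called 8 higher and 1 lower in the lateral plate list, 8 higher in striated muscle, 3 higher and 2 lower among the paraxial markers and 3 higher among the endothelial ones.

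Tail bud markers summed to 119, 49.5, 77.9 and 65.3 CPM and intermediate mesoderm markers to 146, 177, 89.4 and 123 CPM. Blood progenitor markers summed to 417, 555, 616 and 586 CPM, erythroid markers to 634, 653, 227 and 216 CPM, foregut endoderm markers to 207, 171, 132 and 133 CPM and surface ectoderm markers to 312, 277, 254 and 214 CPM. Erythroid, foregut endoderm, intermediate mesoderm and surface ectoderm sums were lower in both Brg1cKO libraries, blood progenitor sums were higher in both, and tail bud sums overlapped. Single genes did not all follow the sums. The log2 fold change was positive for 4 and negative for 2 surface ectoderm markers (median 0.41), and for 4 and 3 intermediate mesoderm markers (median 0.18). It was positive for 2 and negative for 7 erythroid markers (median -1.41), of which DESeq2 called 5 lower. For foregut endoderm 4 were positive and 5 negative (median -0.02), and DESeq2 called Nkx2-1 higher and Pax1 and Cldn6 lower.

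**Figure D5:**
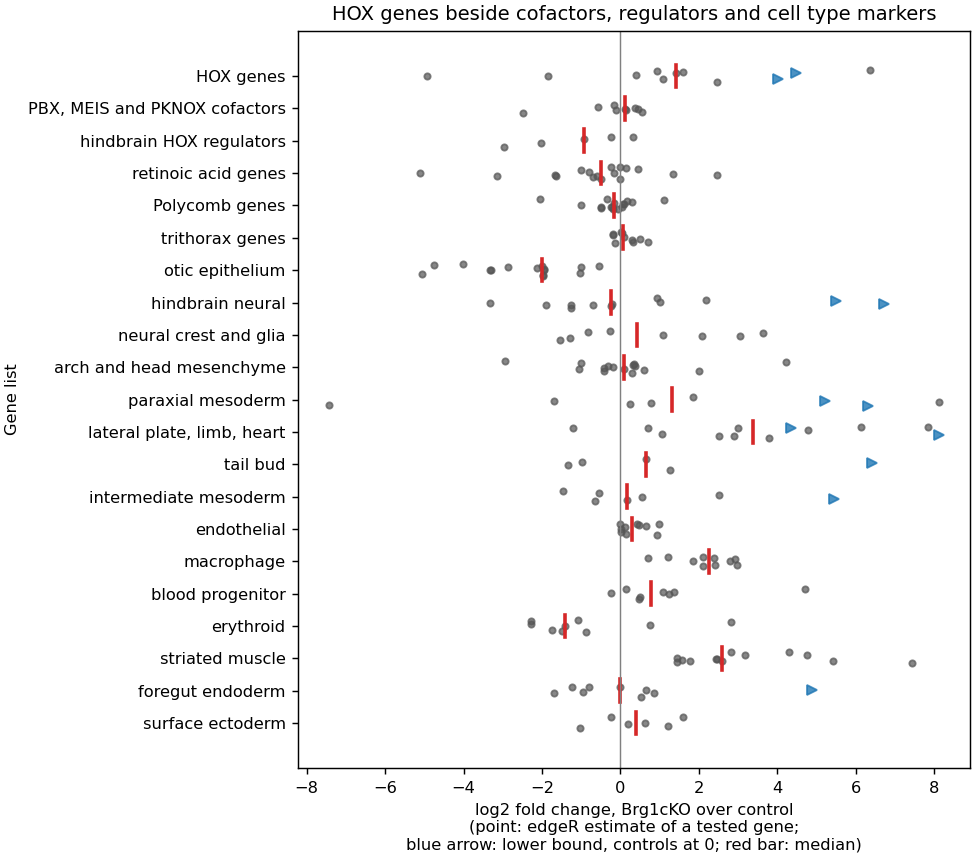
Log2 fold change of Brg1cKO over control for the tested genes of each list, with grey points for edgeR estimates, blue arrows for lower bounds where both controls had 0 reads and red bars for medians. The HOX median is 1.43, beside 3.39 for lateral plate, limb and heart, 2.58 for striated muscle, 2.25 for macrophage and -1.99 for otic epithelium.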

How the data were processed

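The deposited tables hold raw counts of reads per Ensembl gene, not normalized. The submitters' processing notes name HISAT2, HTSeq, DESeq2 and mm10. No source used here gives the annotation or strand setting of the counting. Symbols came from GENCODE M21, which matched 52403 of 52636 identifiers. The lines that name no gene were left out, which kept 48.2% to 64.0% of records. Libraries were scaled by TMM and tested with edgeR 4.0.16 in R 4.3.3 (filterByExpr with a minimum count of 10, quasi-likelihood F-test with robust moderation, Benjamini-Hochberg over all 16557 genes, called under 0.05). The SE of an edgeR fold change was its absolute log2 value over the square root of its F statistic. The 95% intervals used this SE with a t distribution, and both are approximate for genes with 0 reads in a library. Where a group had 0 reads, folds were set against a floor of 3 reads over that group. Alternatives were DESeq2 1.42.0, voom in limma 3.58.1, other scalings, filters and moderation, a replicate block, thinning and leaving out each library. HOX genes are given by symbol, and a few genes are not reported here. Other genes of the clusters are named if a library had at least 10 reads. Of each regulatory list up to 4 genes with the smallest p are named. The members, lists and rules were chosen with earlier results of these data known.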

Additional observations from a re-analysis of the deposited data

How the results depend on the processing

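The number of HOX genes called was 0 with other scalings, filters, voom, the newer moderation, thinning and the replicate block, 3 with DESeq2 and 0 to 2 with single libraries left out. Without 1 library, the lone sample of a group was assumed to vary like the other group. Over all genes the count of calls moved from 5 to 417 with every gene that had a read, 10 at a minimum count of 50, 2422 with DESeq2, 54 with voom, 62 with the newer moderation and 33 to 3519 with single libraries left out (3519 and 3355 when control replicate 1 or 2 was dropped, 45 and 33 when Brg1cKO replicate 1 or 2 was). The HOX median log2 fold change ran from 0.50 (without Brg1cKO replicate 2) to 6.15 (without control replicate 2), and was 0.30 over genes with no exonic overlap. HOX genes with reads in both Brg1cKO libraries and neither control numbered 0 at a minimum of 30 reads and 4 to 5 with single libraries left out. The second range could only rise, because leaving out a library removes a condition. With single libraries left out, log2 fold changes ran from -0.090 to 0.79 for Hoxa3, reversed without Brg1cKO replicate 2, and from -8.49 to 6.94 for Hoxc9, reversed without control replicate 1. The cause was not tested. All tested genes had a median log2 fold change of 0.03 under TMM, -0.01 with DESeq2 size factors and 0.07 with the upper quartile. Of 134 gene values under 14 alternatives, 127 kept direction and call, 5 gained a call and 2 reversed. That tally includes Hoxa4, Hoxb5, Hoxc4 and Hoxb6, whose direction the filter had set. The alternatives also reuse the same libraries, so the tally is no measure of support. Replicate numbers were shared across groups, and libraries with the same number did not deviate together (correlation of deviations -0.005 over 16557 genes). Whether they were paired is not given, and a correlation from 2 libraries per group cannot decide it. With the replicate block 140 genes were called in all, 0 of them HOX, and the HOX median was 1.70. HOX genes with few reads are limited by depth: a count of 0 allows up to 0.195 CPM in the shallowest library.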
